A study of Sus scrofa with 61 samples.

Results

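Longissimus muscle of LWMS pig fetuses was compared between day 90 and day 110 of gestation. An LWMS fetus is a cross of a Meishan (MS) sow with a Large White (LW) boar, and the arrays were chosen by the genotype at the end of each sample's title and by its gestational age. The comparison holds 16 of the 61 arrays of the series, 8 fetuses at day 90 and 8 fetuses at day 110, with 1 array per fetus. The other groups, used only where LWMS is set against them, are the reciprocal MSLW cross of an LW sow with an MS boar (8 and 5 fetuses), purebred LW (8 and 9) and purebred MS (8 and 7), at day 90 and day 110 respectively. Per the study's methods all fetuses were male and were taken by caesarean, no group received a treatment, and sows were inseminated with mixed semen of both breeds. LWMS and MS fetuses therefore grew in the same MS litters, and the labels used here do not give the sow of a fetus. The study's model has far fewer sows than the 61 fetuses, so littermates are likely among the 8 fetuses of an age. A litter taken by caesarean has 1 age, so the ages are compared between different sows. The p-values below measure the spread between fetuses and not between sows. They count littermates as independent and may therefore be too small, and differences between sows cannot be separated from age here. The comparison asks how muscle changes in the last weeks before birth in a fetus that carries both breeds and grows in an MS sow, the breed in which fewer piglets die at birth.

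Late gestation closes the period in which pig muscle fibres are formed. Myoblasts stop dividing and fuse, the contractile proteins of the embryo give way to postnatal isoforms, connective tissue around the fibres is laid down and then slowed, and fibres fill with glycogen and mitochondria. Glucocorticoids and thyroid hormones rise before birth and prepare many fetal tissues for life outside the sow. Heat production and posture of the newborn piglet, which lacks brown fat, rest largely on this muscle.

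The signal of a probe is given throughout as the log2 of its quantile-normalized intensity, and a change is the mean at day 110 minus the mean at day 90 on that scale. A change passed the test where limma's adjusted p, over all 42436 probes kept, was under 1%. Levels of different probes cannot be compared with each other. The arrays lie on 8 slides, and each slide carried 1 LWMS fetus of each age, so each change can also be read within slides. All 8 muscle fibre markers (among them CKM, ACTA1, TTN and NEB) were well above background on all 16 arrays. A spot is well above background where the scanner software marks it so, and a probe is called dim below where no array of an age has that mark. Day 110 arrays had fewer probes well above background, 40450 ± 2285 against 43368 ± 1782 (SD, n = 8 each, exact two-sided permutation test, p = 0.0126), and fewer on 8 of 8 slides. Their signal was also lower, with a 75th percentile of 527 to 775 against 702 to 1156 at day 90 and lower on 7 of 8 slides. The part of this difference in the results below was not tested.

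The 16 arrays separated by age on the first principal component, which held 62.4% of their variance. Day 90 fetuses scored from -93.8 to -64.4 and day 110 fetuses from 72.8 to 93.0. A fetus of each age stood apart toward the other age. The day 90 fetus of slide 6 scored -64.4 where the next was -86.0, and the day 110 fetus of slide 7 scored 72.8 where the next was 86.1. Without the one, 21265 probes passed the test for age, and without the other 21363, against 21584 with both. The count of members called in each direction, in each gene list below, moved by at most 2 without either, and the calls of DIO3, IRF9, LDHA and SIX4 were lost without each of them. On the second component, fetuses of slides 1, 2, 5 and 6 scored below 0 and those of slides 3, 4, 7 and 8 above 0 at both ages.

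**Figure D1:**
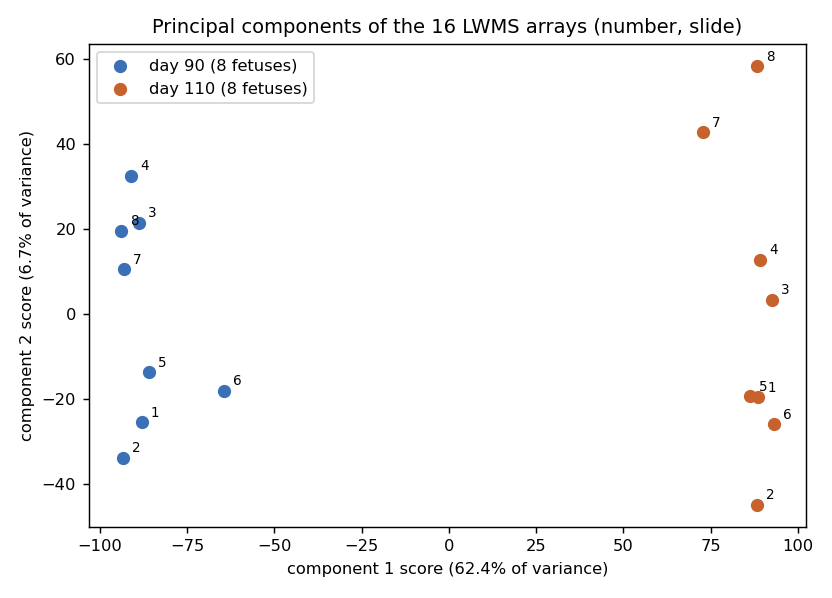
Scores of the 16 LWMS arrays on the first and second principal component, with the share of variance on each axis. Points are fetuses, blue at day 90 and orange at day 110, and the number is the slide. The ages lie on opposite sides of the first component, and the day 90 fetus of slide 6 (-64.4) and the day 110 fetus of slide 7 (72.8) are the nearest to the other age.

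Of the 42436 probes, 21584 (50.9%) changed with age in LWMS, 10659 (25.1%) higher and 10925 (25.7%) lower at day 110. Under 75th percentile scaling of the arrays 11724 were higher and 9873 lower, and 553 of the called probes had the opposite sign. Among the 21584 called probes, 17914 moved in the same direction on all 8 slides. The ages did not overlap at all for 5972 probes that were higher (14.1%) and 6937 that were lower (16.3%). A change above 1 was found for 3132 probes that rose (7.38%) and 4373 that fell (10.3%), and a change above 3 for 148 and 313 probes. The median change over all probes was 0.04. By the main probe of each of the 10881 genes with a symbol, 6021 changed (55.3%), of which 2719 rose (25.0% of all) and 3302 fell (30.3%), and the counts of each gene group below are read against these shares. The large changes were mostly falls in this fit. More probes were dim at day 110 (488) than at day 90 (40), and the part of dim values in these sizes was not tested.

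By the median of a list, cell division genes fell the most. Of the 29 measured genes of mitosis and the spindle, 26 fell and 1 rose, with a median change of -3.58. The median lay between -3.92 and -3.24 on every slide. In bulk tissue, fewer cells of a type and less RNA per cell cannot be told apart. TOP2A, the topoisomerase that untangles chromosomes for mitosis, ranged from 11.47 to 12.06 at day 90 (median 11.64) and from 6.58 to 7.98 at day 110 (median 6.99). The ages lay far apart, and the change was -4.56 ± 0.24 (SE, adjusted p = 1.16e-23, limma). The 60-base array probes of TOP2A and of 5 further genes to which the results below turn were read from the scanner files, 5′ to 3′, and are printed as the identity of what was measured for cell division (TOP2A), steroid-responsive transcription (ZBTB16), glycogen breakdown (PYGM), fatty acid oxidation (ECI1 and CPT1B) and the respiratory chain (COX7A1):
TOP2A: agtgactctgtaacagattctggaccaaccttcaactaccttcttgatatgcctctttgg
ZBTB16: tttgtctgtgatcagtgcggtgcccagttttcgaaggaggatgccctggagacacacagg
PYGM: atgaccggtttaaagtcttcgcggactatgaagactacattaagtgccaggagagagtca
ECI1: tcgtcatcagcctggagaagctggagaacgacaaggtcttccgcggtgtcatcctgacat
CPT1B: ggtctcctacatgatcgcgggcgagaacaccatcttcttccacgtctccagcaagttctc
COX7A1: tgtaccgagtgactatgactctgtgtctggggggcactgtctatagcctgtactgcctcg

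KIF23, a kinesin of the cleavage furrow, ranged from 8.81 to 9.46 at day 90 and from 4.13 to 5.40 at day 110, and fell by 4.49. ASPM, a spindle pole protein, was not well above background on any day 110 array and was at least 11.9-fold lower (medians 7.73 and 2.61). NUSAP1 and STMN1, which bundle and destabilize microtubules, fell by 3.29 and 3.14 with no overlap between ages. MKI67 was the exception in this group: its main probe rose by 0.43 ± 0.08, with ranges of 12.04 to 12.46 and 12.32 to 12.86 that overlapped, while its 2 other probes changed by -1.85 and 0.35. The direction of MKI67 is thus not settled by these probes.

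Of the genes of DNA replication and nucleotide supply 16 of 18 were lower, 1 was higher and the median change was -1.04. RRM2, a subunit of ribonucleotide reductase, fell from a median of 9.75 to 5.68, a change of -4.15 ± 0.21. UHRF1, which carries DNA methylation through replication, was dim on all day 110 arrays and at least 14.9-fold lower. MCM3, of the replicative helicase, fell by 3.69, with 4 of 8 day 110 arrays well above background, and DUT, which keeps uracil out of DNA, fell by 0.77. RFC5, of the clamp loader, rose by 0.73 on its main probe, while its other probes fell by 1.24 and 0.85. Of the 14 G1 cyclins, kinases and inhibitors, 8 fell and none rose in this fit. CCND2 fell by 2.38, CCND3 by 1.42 and CDK6 by 1.39, each without overlap between ages. The inhibitors CDKN1A, CDKN1B and CDKN1C were among the 6 that did not pass.

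**Figure D2:**
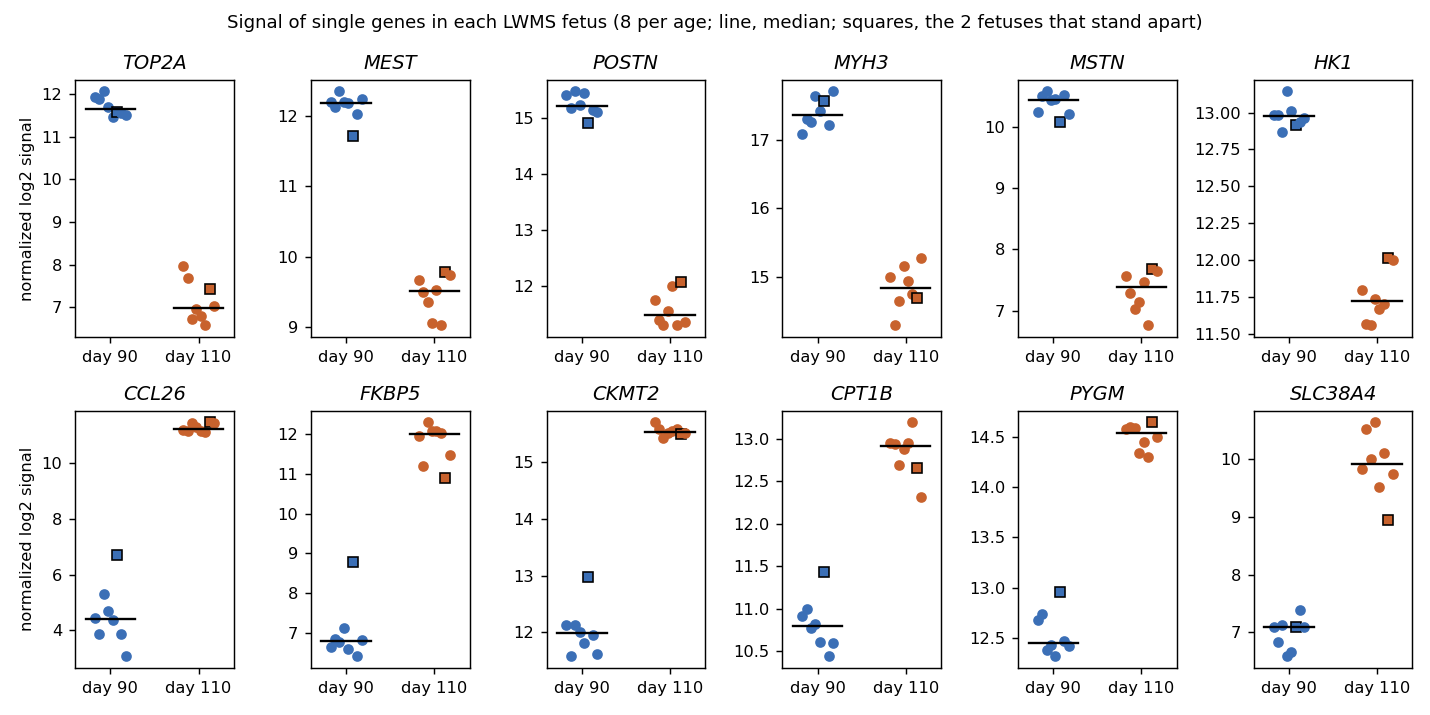
Normalized log2 signal of 12 genes in each LWMS fetus at day 90 (blue) and day 110 (orange), with the median as a line and the 2 fetuses that stand apart on the first component as squares. In each of the 12 panels the ages do not overlap. The day 90 fetus of slide 6 is the highest of its age for CCL26 (6.69), FKBP5 (8.77) and CKMT2 (12.97).

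Extracellular matrix genes fell as a group. Of 19 collagen chains, 17 fell and none rose, with a median of -1.37. Under 75th percentile scaling 15 fell and the median was -1.19. COL21A1 fell from a median of 14.66 to 11.63 (-3.02 ± 0.12), COL11A1 by 2.20, the type I chain COL1A2 by 2.12 and COL5A2 by 1.41. Among 32 other matrix proteins and enzymes, 24 fell and none rose in this fit, with a median of -1.23. Under 75th percentile scaling 20 fell, 1 rose and the median was -0.85. Without either fetus that stood apart 22 fell and 1 rose. POSTN, a matricellular protein of growing connective tissue, lay between 14.91 and 15.47 at day 90 and between 11.29 and 12.07 at day 110. Its change was -3.66 ± 0.20, and its 7 other probes fell by 3.45 to 3.61. TNC and VCAN, glycoproteins of immature matrix, fell by 3.10 and 3.07 with no overlap.

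Markers of other cell types moved as well. The summed signal of 7 fibroblast markers ranged from 329040 to 390450 at day 90 and from 101550 to 174180 at day 110, with 6 of 7 lower. Since COL1A1, COL3A1, DCN and LUM are both matrix genes and fibroblast markers, these are not separate measurements. The sum of 8 endothelial markers fell from between 69556 and 75160 to between 24820 and 32526, with CLDN5, CDH5, KDR, TIE1 and PECAM1 lower and VWF higher. The sum of 8 macrophage markers went from 9896.7 to 12241 down to 4853.4 to 7215.4, with 5 lower. Sums of the 3 lists did not overlap between ages and no marker of these lists was below background on all arrays. The part of these cell types in the falls of matrix and division genes was not tested. The adipocyte sum was higher on 8 of 8 slides (22023 to 30254 against 32853 to 42620), with CIDEC and CFD higher and FABP4 lower. ADIPOQ, LEP, PLIN1 and PPARG did not pass, and the median change of the 7 adipocyte markers was -0.29. The muscle fibre sum overlapped between ages (1889800 to 1999300 against 1906700 to 2135300) and was also higher on 8 of 8 slides. The 7 erythroid markers summed to 5175.6 to 7307.3 and then 3263.2 to 4168.9, the 5 lymphocyte markers to 1553.6 to 2478.6 and 1086.2 to 1695.8, and the 8 Schwann cell and neuron markers to 18540 to 29279 and 24476 to 37703.

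Embryonic forms of the contractile apparatus mostly fell and postnatal forms mostly rose. Of 7 embryonic and fetal sarcomere or cytoskeleton genes, 4 fell and 2 rose, with a median of -1.735. Under 75th percentile scaling 4 fell, 3 rose and the median was -1.25. MYH3, the embryonic myosin heavy chain, ranged from 17.08 to 17.70 at day 90 and from 14.29 to 15.27 at day 110, a change of -2.55 ± 0.21. TNNT2, the troponin T of heart and embryonic muscle, fell by 3.03, and NES, the intermediate filament nestin of immature fibres, by 2.83. MYBPH, a myosin-binding protein, rose by 2.47 without overlap. ACTA2, smooth muscle actin, rose by 0.92 on its main probe, but its 7 other probes ranged from -1.52 to 0.77.

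Of 15 fast sarcomere genes, 10 rose and none fell, with a median of 0.33, and of 13 slow sarcomere genes, 8 rose and none fell, with a median of 0.52. MYH4, the myosin of the fastest fibres, rose by 1.80 ± 0.10 from a median of 16.10 to 17.98, MYBPC2 by 1.80 and MYH1 by 1.21. The 9 other MYH4 probes ranged from -1.77 to 0.91 and the 7 other MYH1 probes from -1.65 to 2.02. Myosin heavy chain genes are near-identical neighbours, so these probes may share transcripts. TNNT3, fast troponin T, rose by 0.54 on its main probe with 4 others from -3.21 to 0.31, and is named after its values were seen. In the slow list, ANKRD2, a stretch-responsive protein, rose by 1.77 and MYOZ2, a Z-disc protein of slow fibres, by 1.32. TPM3, slow tropomyosin, rose by 0.95 on its main probe, with 7 others from -1.49 to 1.42. Most of these main probes are bright, though not that of MYBPC2 (7.32 to 8.67 at day 90), and scaling mattered. When arrays were brought to a common 75th percentile and not quantile normalized, the medians of the fast and slow list were 0.89 and 1.11, with 13 of 15 and 12 of 13 higher.

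Membrane and signalling genes of the fibre changed by isoform too. CHRNG, the fetal subunit of the acetylcholine receptor, fell by 1.54 (well above background on 6 of 8 day 110 arrays), while CHRNE, the adult subunit that replaces it, rose by 0.82 and CHRNB1 by 0.37. CHRNA1 and the adhesion molecule NCAM1 fell by 0.90 and 0.83, and 2 of the 9 neuromuscular junction genes rose and 4 fell. ATP1B1, a beta subunit of the sodium pump, rose by 1.70 and ATP1B2, another, fell by 0.92. RYR3, the calcium release channel of immature muscle, fell by 2.56, but its other probe changed by 0.47 and did not pass. Over the 22 genes of calcium handling and excitation 13 rose and 4 fell, ASPH among the latter at -0.89, with a median of 0.53. Under 75th percentile scaling 17 rose and the median was 0.91.

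Myogenic regulators mostly fell, 11 of 19 lower and 4 higher. MSTN, which restrains muscle growth, ranged from 10.08 to 10.57 at day 90 and from 6.76 to 7.68 at day 110, a change of -3.05 ± 0.17. MYMK, the fusion protein myomaker, fell by 1.75 and MYF5, a determination factor of myoblasts, by 1.60, each without overlap. PAX7, which marks satellite cells, rose by 0.88 and PAX3, its paralogue, by 0.82, also without overlap, and MEF2D rose by 1.02 and SIX4 by 0.24. Of the 5 measured satellite cell markers, PAX7 was higher while CALCR, MYF5 and CD34 were lower, and their sum fell from between 15226 and 18726 to between 7203.4 and 9438.4.

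In the insulin-like growth factor (IGF) system, which drives fetal growth, 9 of 15 genes fell and 2 rose, with a median of -0.30. The binding proteins IGFBP7, IGFBP2 and IGFBP4 fell by 1.41, 1.11 and 0.98. The receptors moved the other way, INSR by 0.93 and IGF1R by 0.67. IGF2 itself, very bright at both ages (17.36 to 17.61 and 17.16 to 17.47), changed by -0.21 on its main probe and by -0.79 to -0.64 on 8 others. Its main probe changed by 0.34 under 75th percentile scaling, so its direction depends on the scaling, as does the balance of the list (3 higher and 5 lower).

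Imprinted genes, many of which are growth regulators expressed from the copy of a single parent, fell in 13 of 22 cases and rose in 5. Under 75th percentile scaling 11 fell and 6 rose. MEST, expressed from the father's copy, ranged from 11.71 to 12.34 at day 90 and from 9.02 to 9.78 at day 110 (-2.67 ± 0.11). NNAT fell by 2.73, though its other probes ran from -2.73 to 0.39, and MAGEL2 fell by 1.72. SLC38A4, an amino acid transporter, went against the group with a rise from a median of 7.09 to 9.92 (2.94 ± 0.22). GRB10, an adaptor that dampens insulin signalling, rose by 1.83, ASB4 by 1.26, DIO3, which inactivates thyroid hormone, by 0.79 and the non-coding RNA H19 by 0.37. For DIO3, 5 of 8 and 6 of 8 arrays were well above background.

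Energy metabolism rose together in the pathways that burn fuel in mitochondria. Of 23 genes of fatty acid oxidation, 22 rose and none fell (median 1.19). Of 25 genes of pyruvate dehydrogenase and the citric acid cycle, 23 rose and 1 fell (median 1.26), and of 33 nuclear genes of the respiratory chain, 31 rose and 1 fell (median 1.10). On each slide these medians lay between 1.08 and 1.47, 1.08 and 1.50, and 0.94 and 1.27. Over all genes with a symbol the share that rose was 25.0%.

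ECI1, an isomerase that feeds unsaturated fatty acids into beta-oxidation, ranged from 9.47 to 10.74 at day 90 and from 12.71 to 13.00 at day 110 (2.72 ± 0.16, adjusted p = 2.26e-22, limma). ACADVL, which opens beta-oxidation of long chains, rose by 2.26. CPT1B, the muscle gate for long-chain fatty acids into mitochondria, ranged from 10.44 to 11.43 and then from 12.31 to 13.19, with medians of 10.79 and 12.91. The ages did not overlap for any of these 3 genes. The liver form CPT1A was the member that did not pass (-0.29). PDK4, a kinase that turns pyruvate dehydrogenase off, varied widely within each age (11.31 to 13.70 and 14.00 to 15.79) and rose by 2.56 ± 0.36, while PDK3 fell by 0.70. MDH1, of the malate shuttle, and PDHA1, a subunit of pyruvate dehydrogenase itself, rose by 1.82 and 1.79. In the respiratory chain, UQCRFS1 of complex III rose by 1.93, NDUFV1 of complex I by 1.78 and COX7A1, the muscle form of a complex IV subunit, by 1.72, from 15.12 to 15.94 up to 16.88 to 17.32. COX6A1, the form found outside muscle, fell by 0.95 on its main probe, with 7 others from -0.93 to 0.13.

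Among 11 regulators of oxidative metabolism 8 rose and none fell. ESRRA, a nuclear receptor that partners PGC-1 proteins, rose by 1.71 and RORA by 1.47, both without overlap. Fatty acid uptake and storage was mixed, with 11 of 19 higher and 4 lower. ACACB, the mitochondrial acetyl-CoA carboxylase that controls CPT1, rose by 2.25, while ACACA, the cytosolic form for fat synthesis, fell by 0.50 together with FASN by 0.42, ELOVL6 by 1.37 and FABP4 by 0.69. PLIN5 and PNPLA2, which coat and hydrolyse lipid droplets, rose by 2.17 and 2.16. The calls of FASN and FABP4 were lost under 75th percentile scaling, at -0.21 and -0.32.

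Glucose use changed less. Of 22 glycolysis genes, 14 rose and 2 fell, with a median of 0.53 that was 1.03 under 75th percentile scaling. PFKFB1, which sets the level of the activator fructose 2,6-bisphosphate, rose by 2.26, the insulin-sensitive transporter SLC2A4 by 1.33 and SLC2A1 by 1.23. HK1, the widespread hexokinase, ranged from 12.87 to 13.14 and then from 11.56 to 12.01 (-1.22 ± 0.07), and PGAM1, the non-muscle mutase, fell by 0.73 with its other probe at 0.40. PGK1 rose by 0.53 and LDHA by 0.49, LDHA with overlap between ages and an adjusted p of 0.00853 (limma). Its call was lost without the day 90 fetus of slide 6 (0.46) and without the day 110 fetus of slide 7 (0.44).

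Glycogen metabolism rose in 10 of 16 genes and fell in 1. PYGM, the muscle phosphorylase that breaks glycogen down, ranged from 12.32 to 12.96 at day 90 and from 14.30 to 14.64 at day 110 (1.95 ± 0.13). PHKB and PHKA1, subunits of its activating kinase, rose by 1.53 and 1.50. PPP1R3D, a glycogen-targeting subunit of phosphatase 1, fell by 0.77. In the list of gluconeogenesis and polyols 2 of 12 rose and 3 fell. GPD2 and PC rose by 1.60 and 0.80 and FBP1 fell by 0.85, its 2 other probes lying between -0.89 and 0.49. PCK2, SORD and GPD1 did not pass, at 0.49, 0.21 and 0.32. Under 75th percentile scaling GPD1 passed, at 0.84.

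Hormone-responsive genes held some of the largest rises. Of 17 genes of thyroid hormone and glucocorticoid action, 12 rose and 4 fell (median 1.00), and 10 rose and 4 fell without either of the fetuses that stood apart. FKBP5, a chaperone whose gene glucocorticoids switch on, ranged from 6.42 to 8.77 at day 90 and from 10.88 to 12.29 at day 110. The change was 4.74 ± 0.25 (26.7-fold, adjusted p = 4.10e-24, limma), and the highest day 90 value belonged to the fetus of slide 6. ZBTB16, a zinc finger repressor induced by glucocorticoids, ranged from 8.68 to 10.04 and then from 11.41 to 13.14 (3.16 ± 0.22). KLF15, KLF9 and HSD11B1, the enzyme that makes active cortisol, rose by 1.81, 1.77 and 1.61 and are named here after their values were seen. HSD11B2, which inactivates cortisol, fell by 0.74, the receptor NR3C1 by 0.53 and SGK1 by 0.69. DIO1, which activates thyroid hormone, was dim at day 90 and at least 3.18-fold higher at day 110, where 7 of 8 arrays were well above background, and the receptor THRA fell by 0.56, a call lost under 75th percentile scaling (-0.02).

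Genes of protein breakdown and stress rose in part. Among 13 ubiquitin ligase, FOXO and autophagy genes, 11 rose and none fell. FBXO32, the muscle ligase atrogin-1, differed widely between fetuses (11.47 to 13.44 and 13.00 to 15.63) and rose by 1.90 ± 0.37 with overlap, FBXO40 by 1.86 and EIF4EBP1, an inhibitor of translation, by 1.43. In the list of ATF4 targets and amino acid transport 7 of 18 rose and 3 fell. ARG2, mitochondrial arginase, rose by 3.54, and PSPH and PSAT1, of serine synthesis, fell by 1.16 and 1.05, with SLC1A4 at -0.70 (well above background on 3 of 8 day 110 arrays). The other probe of PSPH changed by 0.30. Of 21 antioxidant and heat shock genes, 12 rose and 3 fell. GPX3 rose by 3.34 ± 0.28, SOD2 of the mitochondrion by 2.35 and the metallothionein MT1A by 2.08, while HSPA8, HSPB2 and GSR fell by 0.55, 0.52 and 0.50. Under 75th percentile scaling HSPA8 and HSPB2 were at -0.03 and -0.04 and lost their calls.

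The creatine, haem and oxygen list moved both ways, 5 of 12 higher and 6 lower. CKMT2, the mitochondrial creatine kinase of muscle, ranged from 11.58 to 12.97 and then from 15.41 to 15.70 (3.51 ± 0.15, 11.4-fold), and its 11 other probes rose by 3.54 to 4.02. TFRC, the transferrin receptor, rose by 1.23, myoglobin (MB) by 1.11, and cytosolic CKM by 0.27. The creatine transporter SLC6A8 rose by 0.66, but with non-uniform spots kept it changed by -0.51 and did not pass. HMOX1, which degrades haem, fell by 1.90. Of 25 interferon and MHC genes 12 fell and 3 rose. GBP1, an interferon-induced GTPase, fell by 1.63 without overlap on its main probe, with others at -1.68 and -0.09, while IFIT1 rose by 1.46, IFIT2 by 1.11 and IRF9 by 0.37. Under 75th percentile scaling, list medians moved from 0.49 to 0.76 for glycogen, from 0.66 to 0.99 for ubiquitin ligases, from 0.43 to 0.66 for ATF4 targets, from 0.33 to 0.70 for antioxidants, from 0.02 to 0.30 for creatine and haem and from 0.11 to 0.21 for the neuromuscular junction.

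**Figure D3:**
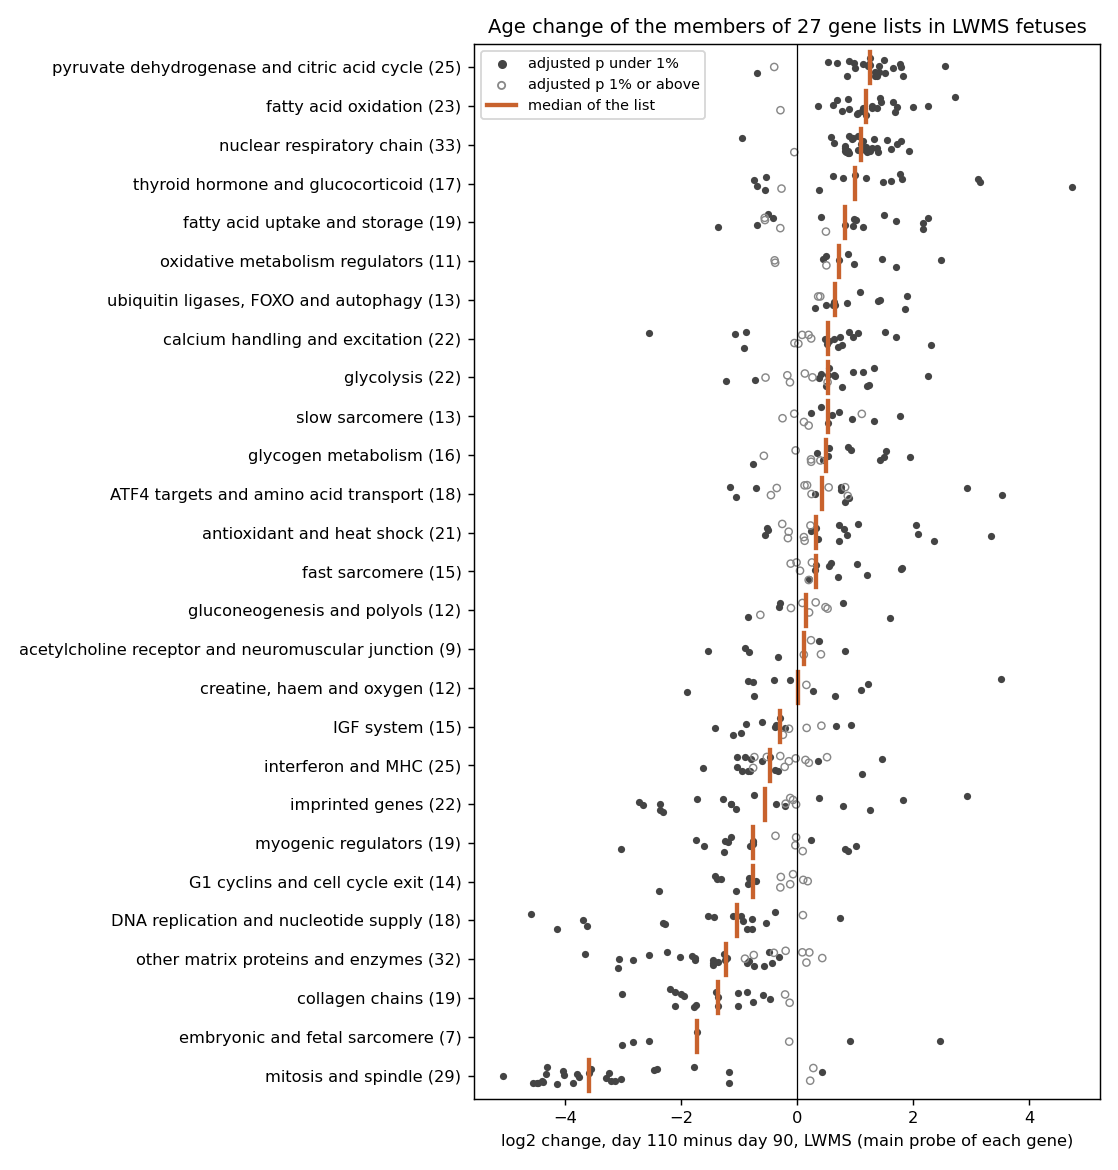
Change from day 90 to day 110 in LWMS (log2, x axis) of the measured members of 27 gene lists, with the number measured in brackets and the list median as an orange bar. Filled points have a limma adjusted p under 1% and open points do not. Medians run from 1.26 in pyruvate dehydrogenase and the citric acid cycle to -3.58 in mitosis and spindle.

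Outside the lists, the largest rise of any named gene was that of CCL26, a chemokine. It ranged from 3.07 to 6.69 at day 90 (median 4.40), where 6 of 8 arrays were well above background, and from 11.11 to 11.46 at day 110 (6.74 ± 0.42, 107-fold). PROM2, a membrane protein of cell protrusions, rose from a median of 4.13 to 9.13 (4.99), TRNP1, a nuclear DNA-associated protein, by 4.73 and AGT, the precursor of angiotensin, by 4.54. FGL1, a secreted fibrinogen-like protein, and PPP1R14C, an inhibitor of phosphatase 1, were dim on all day 90 arrays and were at least 11.4-fold and at least 7.27-fold higher at day 110. GNMT, a glycine methyltransferase, was well above background on 2 of 8 day 90 arrays and rose by 4.44. The places of FGL1, PPP1R14C and GNMT among the largest rises thus rest wholly or mostly on day 90 values not well above background. CA9, a carbonic anhydrase of the cell surface, rose by 4.41, from 8.45 to 9.98 up to 12.22 to 13.65, and MTMR7, a lipid phosphatase, by 4.16. In each of these 9 genes and FKBP5, picked as the largest rises, the ages did not overlap. The same held for 45 of all 47 probes with a rise above 4.

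Among the genes with the most negative fitted changes, PRND, the prion-like protein doppel, fell from a median of 8.92 to 2.25 (-6.21 ± 0.46), with 1 of 8 day 110 arrays well above background. HAPLN1, which links hyaluronan to proteoglycans, fell by 5.13 in the fit. Its 1 day 110 array well above background can only be that of slide 8, whose value was set to missing. The day 110 values used (1.72 to 3.12) each lay under the lowest signal well above background on their array. SOSTDC1, an extracellular inhibitor of BMP and Wnt signals, was dim at day 110 and at least 12.2-fold lower. PCLAF, a partner of PCNA in replication, ranged from 10.60 to 11.46 and then from 5.39 to 7.09 (-4.82 ± 0.27). PIMREG, a regulator of mitosis, fell by 4.53 and ENOSF1, which overlaps the thymidylate synthase gene on the other strand in mammals, by 4.55, with 5 of 8 day 110 arrays well above background. KIF23, TOP2A, ASPM and UHRF1 were the others of the 10 most negative fits. The place of the dim genes ASPM, UHRF1 and SOSTDC1 in this ranking is not measured. The size and place of PRND rest mostly, and those of HAPLN1 wholly, on day 110 values that were not well above background. CREM, a cyclic AMP-responsive transcription factor, fell by 0.95 and RASGRP3, a Ras activator, by 0.48.

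The age change was then tested against that of the other genotypes, to ask where a cross with an MS sow and an LW boar departs from its reciprocal and its parents. MSLW and LW fetuses grew in LW sows, so in these tests the fetal genotype cannot be separated from the sow. LWMS and MS fetuses came from the same litters, a pairing that the fit did not use. Over age alone, 44.6% of probes passed in MSLW, 45.3% in LW and 56.7% in MS, with unequal numbers of fetuses. Against MSLW, which holds the same 2 breeds with sow and boar exchanged and shares no fetus with LWMS, the difference passed for 14 probes (0.0330%), 6 of them without a symbol. The count was 33 with the slide as a block, 9 on the median signal and 9 without MSLW fetus 1 of day 110. Across all probes the changes of the reciprocal crosses had a Pearson r of 0.93, given as a description because probes are not independent, and the median absolute change was 0.41 in each. The median SE of an age change in LWMS was 0.14, and a difference between genotypes carries the error of both.

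**Figure D4:**
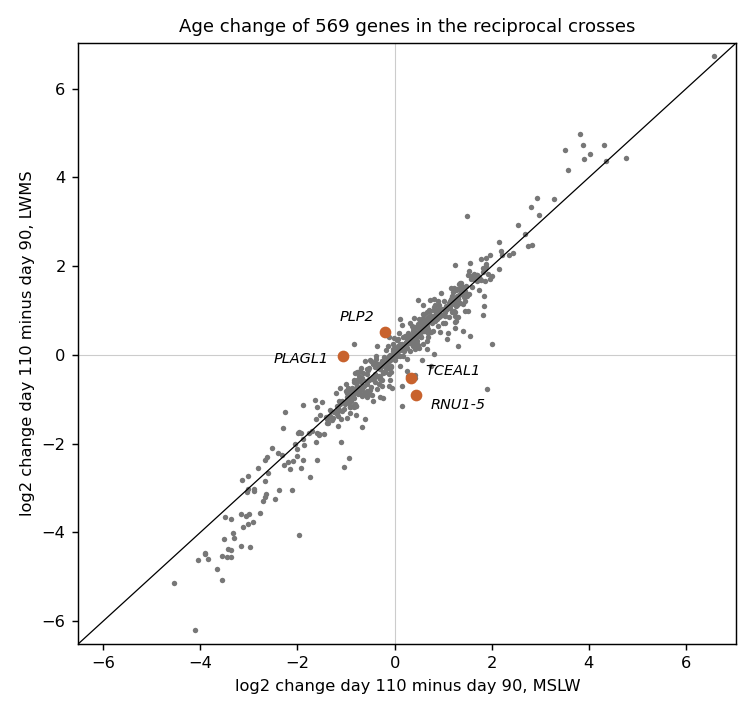
Change from day 90 to day 110 (log2) in LWMS (y axis) against MSLW (x axis) for 569 genes, those of the gene and marker lists and those named by rule, each by its main probe. The line marks equal changes. The 4 genes in orange, PLAGL1, PLP2, TCEAL1 and RNU1-5, passed the limma test of the difference at an adjusted p under 1%.

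PLAGL1, an imprinted zinc finger gene expressed from the father's copy that restrains the cell cycle, did not pass in LWMS, with values from 11.80 to 12.20 at day 90 and from 11.60 to 12.34 at day 110 (-0.02 ± 0.10). In MSLW it fell by 1.07, to 11.09 to 11.31 at day 110, and the changes differed by 1.05 ± 0.15 (adjusted p = 8.69e-05, limma). Both genotypes with an LW boar, LWMS and LW, had day 110 means of 12.00 and 12.24, whereas both with an MS boar, MSLW and MS, had 11.21 and 11.11, a division by boar that was not tested as such. The other PLAGL1 probe gave a difference of 1.19 from MSLW.

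PLP2, a membrane protein encoded on the X chromosome, showed the opposite division. It rose in LWMS by 0.53, from 14.10 to 14.53 up to 14.64 to 15.18, and changed by -0.19 in MSLW, a difference of 0.71 ± 0.11 (adjusted p = 0.000384, limma). Here the genotypes with an MS sow went together at day 110, with means of 14.83 in LWMS and 14.82 in MS against 14.12 in MSLW and 14.33 in LW, which again was not tested as such. TCEAL1, also on the X chromosome, fell in LWMS by 0.52, to a range of 8.42 to 8.91, and rose in MSLW by 0.33, to 9.37 to 9.65, a difference of -0.85 ± 0.11 (adjusted p = 5.00e-06, limma). Its day 110 means were 8.67 in LWMS and 8.71 in MS and 9.51 in MSLW and 9.19 in LW. All fetuses were male, and the study states that their X chromosome genes came from the mother. For PLP2 and TCEAL1, the breed of the X chromosome and that of the sow therefore cannot be told apart. RNU1-5, a probe for a small nuclear RNA of splicing, fell by 0.90 in LWMS with overlap, a call lost under 75th percentile scaling (-0.40), and changed by 0.45 in MSLW. A GBP1 probe differed by -2.65 but was dim in LWMS at day 110, and the main GBP1 probe did not pass (adjusted p = 0.175, limma).

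Against the mean of the LW and MS changes, 1 probe passed (0.00236%), named after its value was seen. It is a probe of ANGPTL1, a secreted angiopoietin-like protein, at 0.23 in LWMS against -0.91 in LW and -0.45 in MS (difference 0.91, adjusted p = 0.00425, limma). The call was lost without the day 90 fetus of slide 6 and without the day 110 fetus of slide 7. Its other probes did not pass. Over all probes the median absolute difference between the LWMS change and the mean of both breeds was 0.11.

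Against LW, the boar's breed, 141 probes differed (0.332%), 50 with a more positive and 91 with a more negative change in LWMS. The count was 237 with the slide as a block and 84, of 60305 probes, with no filter on dim probes. ARG2 differed most clearly. It rose in LWMS from a range of 7.55 to 8.59 to one of 9.67 to 12.62, while it fell by 1.44 in LW, where the day 110 range was 5.51 to 8.72 (difference 4.98 ± 0.56, adjusted p = 1.02e-07, limma). PPP1R14C rose by 4.37 in LWMS and 1.94 in LW in the fit, with 4 of 9 LW fetuses measured at day 110, and PHGR1 rose by 1.50 while it changed by -0.17 in LW. WFIKKN2, a secreted inhibitor of myostatin, rose by 1.24 in LWMS and changed by 0.28 in LW (difference 0.96 ± 0.19), and GPD1, which makes glycerol 3-phosphate, changed by 0.32 and -0.69. In MS the changes were 3.93 for ARG2, 5.94 for PPP1R14C, 1.99 for PHGR1, 0.94 for WFIKKN2 and 0.35 for GPD1. Larger positive differences of single probes included 1 of VTI1B (4.09), named after its value was seen. That probe changed by 4.33 in LWMS and 0.24 in LW.

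In the other direction, ENPEP, a peptidase that cleaves angiotensin, was at 10.18 to 11.04 at day 90 and 10.61 to 11.25 at day 110 in LWMS. In LW it started lower, at 8.01 to 9.08, and rose by 2.25 to reach 9.86 to 11.35, a difference of -1.94 ± 0.23 (adjusted p = 2.94e-07, limma). The LW fetuses differed from LWMS at day 90 and overlapped with them at day 110. CLEC18A, a lectin, changed by -0.25 in LWMS and rose by 1.59 in LW. ZP2, LPAR4 and ASPM fell further in LWMS, by 3.59, 2.53 and 5.08 in the fit against 0.94, 1.14 and 3.45 in LW, with no day 110 LWMS array well above background for ZP2 and ASPM and 3 of 8 for LPAR4, so that these differences depend on dim values. CREM fell by 0.95 in LWMS and by 0.31 in LW (difference -0.64). In MS, ENPEP changed by 0.002, CLEC18A by -0.07 and CREM by -0.91. ZP2, LPAR4 and ASPM changed there by -4.33, -2.27 and -5.10 in the fit. FRZB, a secreted Wnt antagonist, gave 8 of the 141 probes, with falls of 0.73 to 1.17 in LWMS, and was named after its values were seen. So were larger negative differences of single probes, of NR4A3 (-3.48), MYH1 (-3.17) and MYH4 (-3.11 and -2.66). The MYH1 and the first MYH4 probe fell by 1.66 and 1.57 in LWMS, unlike the main probes of these genes.

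Against MS, the sow's breed and the littermates of the crosses, 17 probes differed (0.0401%), all with a more positive change in LWMS. PROM2 rose by 4.99 in LWMS to 8.84 to 9.37 and by 1.97 in MS to a mean of 6.18, and the changes differed by 3.02 ± 0.55. In LW and in MSLW PROM2 rose by 3.81. DLK1, an imprinted gene of the father's copy that holds cells immature, fell by 1.28 in LWMS, with ranges of 12.54 to 14.27 and 11.35 to 12.82, and by 3.05 in MS (difference 1.77 ± 0.32, adjusted p = 0.00353, limma). PLAGL1 differed here too (1.00 ± 0.14). The INS-IGF2 readthrough probe fell by 0.66 in LWMS and by 1.48 in MS, but its change in LWMS was -0.10 under 75th percentile scaling. P4HA3, a collagen prolyl hydroxylase, fell by 1.66 in LWMS and by 2.86 in MS.

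**Figure D5:**
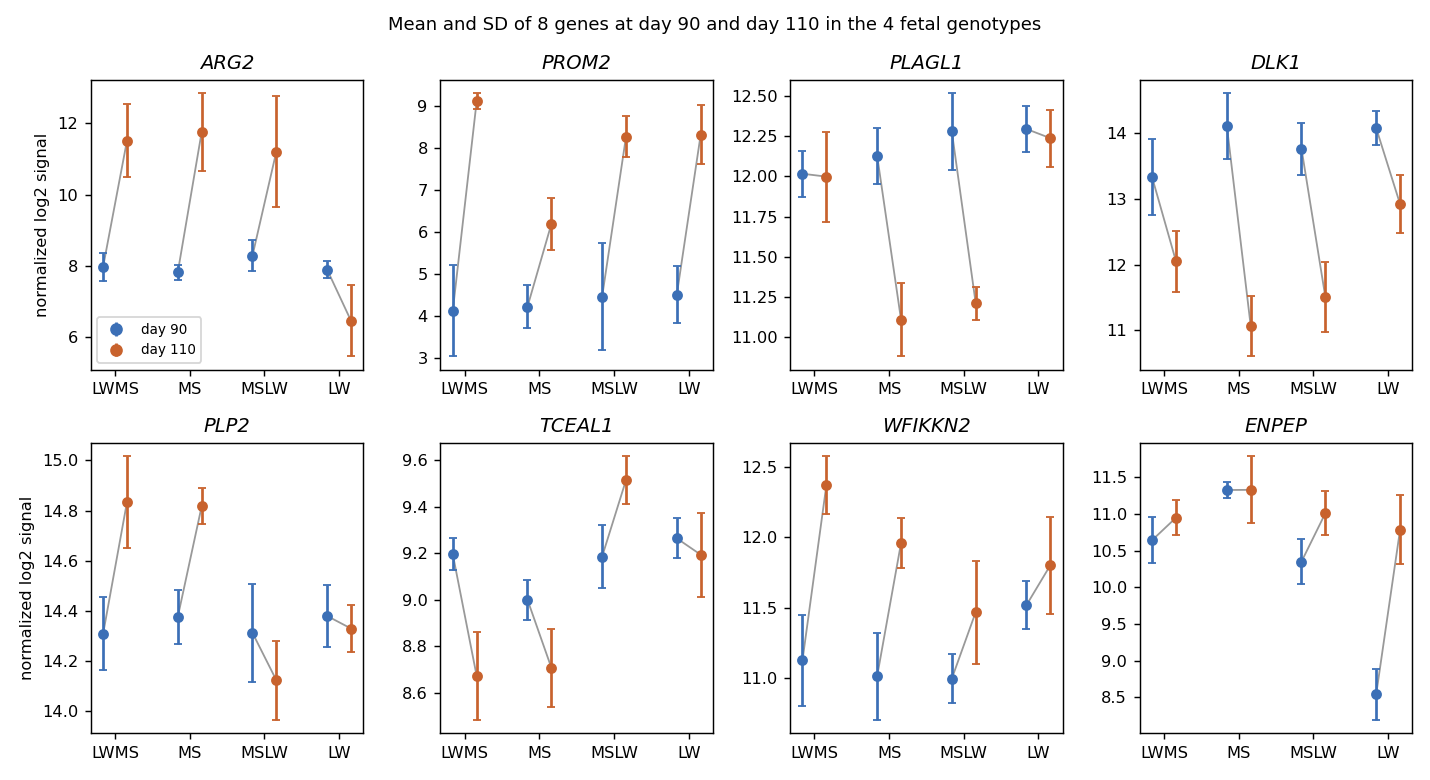
Mean and SD of the normalized log2 signal of 8 genes at day 90 (blue) and day 110 (orange) in LWMS (8 and 8 fetuses), MS (8 and 7), MSLW (8 and 5) and LW (8 and 9). ARG2 rises in LWMS, MS and MSLW and falls in LW, PLAGL1 falls in MS and MSLW, and the day 110 means of PLP2 and TCEAL1 in LWMS (14.83 and 8.67) lie beside those of MS (14.82 and 8.71).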

How the data were processed

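RNA of each fetus was hybridized to 1 Agilent one-colour porcine array. Per the labels, the scanner software was Agilent Feature Extraction 10.10.1.1 and limma was among the tools. The authors deposited each array's scanner intensity (background-corrected signal, spot mean and median, local background) with no scaling across arrays. They also deposited log2 values after their own quantile step, used here as an alternative. Control spots were left out, non-uniform spots were set to missing, and quantile normalization over 61 arrays was applied to the background-corrected signal before log2 transformation and averaging per probe. A probe was kept when 80% or more of the arrays in any of the 8 groups were well above background. LWMS arrays had at most 2 saturated spots. The number of arrays limits the precision.

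The 8 group means were fitted with limma 3.58.1 in R 4.3.3 (moderated two-sided tests, Benjamini-Hochberg over all kept probes, threshold 1%). The study's random sow effect was not fitted because the labels used here give no sow. Symbols came from the array (19795 kept probes), RefSeq gene numbers (2237), RefSeq accessions (940) and the study's lists (170), and genes without a symbol were not analysed here. The main probe of a gene is the one with the highest mean over all arrays. Named genes are the 10 largest rises and falls, per list the 3 largest changes and members moving against the majority, per difference between genotypes the 5 largest each way, and genes the study names. Some genes that meet this rule are not reported here. A bound ("at least") is given where no array of an age had the probe well above background. It sets the mean of the bright age against the lowest signal well above background on each array of the dim age, or the probe's own signal if higher. The methods were tested on simulated data. Members and lists were chosen with earlier results of these data known. Alternatives changed the signal column, background correction, scaling, filter, non-uniform spots, slide block and arrays fitted.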

Additional observations from a re-analysis of the deposited data

Results flagged for a closer look

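Within an age, 27 of 328 sets of LWMS values (8.23%) held a fetus far from the other 7, where chance flags about 1 in 20. Of these 27, 17 were at day 90, and 14 of the 17 were the fetus of slide 6. That fetus had the score nearest to day 110 on the first component, at -64.4. It was the highest day 90 value for ACADVL (12.26), CA9 (9.98), CKMT2 (12.97), COX7A1 (15.94), FKBP5 (8.77), MYH4 (16.81), PDHA1 (13.57), PFKFB1 (9.56) and PNPLA2 (12.65). It was the lowest for DUT (13.15), PCLAF (10.60), STMN1 (13.95) and TCEAL1 (9.04).

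The remaining day 90 values were NES at 16.45 on slide 2, and DIO3 at 5.60 and RASGRP3 at 9.95, both on slide 4. At day 110 the fetus of slide 7 scored 72.8 on the first component and had CCND2 at 12.85. The fetus of slide 8 stood apart for ASPM (3.81), CHRNG (3.17), PHKA1 (12.24) and RYR3 (4.61), that of slide 1 for MEF2D (6.26) and ZP2 (3.45), that of slide 3 for GBP1 (4.73) and that of slide 4 for PAX7 (9.32).

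Age changes that differed between genotypes by limma's test were found for 14 probes against MSLW, 1 against the mean of both breeds, 141 against LW and 17 against MS. Against MSLW, the genes that differed by their main probe were PLAGL1 (1.05), PLP2 (0.71), TCEAL1 (-0.85) and RNU1-5 (-1.35), and single other probes of GBP1 (-2.65) and ANGPTL1 (1.03) passed. Against LW, among the named genes by their main probe, the change in LWMS was more positive for ARG2 (4.98), PPP1R14C (2.43), PHGR1 (1.67), GPD1 (1.01), WFIKKN2 (0.96) and PLP2 (0.58). It was more negative for ZP2 (-2.65), ENPEP (-1.94), CLEC18A (-1.84), ASPM (-1.63), LPAR4 (-1.39), CREM (-0.64) and TCEAL1 (-0.45). Against MS, among the named genes by their main probe, it was more positive for PROM2 (3.02), DLK1 (1.77), P4HA3 (1.20), PLAGL1 (1.00) and INS-IGF2 (0.82).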

How the results depend on the processing

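The count of probes changed with age in LWMS lay between 17604 and 23114 in all alternatives run, which did not all test the same number of probes. The lowest was of the 31376 probes well above background on all arrays, and the highest of 42436 with the slide as a block. With no filter it was 21462 of 60305. Of 1915 values of 162 named genes, 1882 kept direction and side of the threshold, 27 lost the call, 1 gained it (GPD1, 0.84 under 75th percentile scaling) and 5 changed sign. IGF2 was 0.34 and PLAGL1 0.15 under 75th percentile scaling, PLAGL1 was 0.0011 without the day 90 fetus of slide 6 and 0.039 without the day 110 fetus of slide 7, and SLC6A8 was -0.51 with non-uniform spots kept. The cause was not tested. Against MSLW, 9 probes passed on the median signal and 33 with the slide as a block, and leaving out single fetuses gave 9 to 17. Against the mean of both breeds, 3 passed on the median signal, on the deposited log2 values and after normexp. Without either fetus that stood apart limma called 0, with 2200 and 2300 of 42436 probes at an unadjusted p under 0.05. The main fit had 1951 such probes, and where no probe differs a share of about 0.05 falls under this limit. Against LW, 84 of 60305 passed with no filter and 237 of 42436 with the slide as a block. Against MS, 11 of the 31376 probes well above background on all arrays passed. Leaving out fetuses was chosen after seeing the data. The labels give no replicate numbers, and paired by slide the LWMS arrays alone gave 21326 probes. Dim probes, 40 at day 90 and 488 at day 110, have only a bound at that age.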
